A study of Mus musculus with 6 samples.

Results

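The T cell costimulatory and checkpoint molecules of antigen-presenting cells were examined in J774 cells with and without knockdown of NCOA4. They were taken as 9 named genes, Cd86, Cd80, Cd40, Cd274, Icosl, Tnfrsf14, Tnfsf9, Lgals9 and Cd48, out of 55487 genes in the files, and each name matched 1 Ensembl identifier in GENCODE M21. J774 is a mouse macrophage cell line, the study used its clone E, and the labels name no treatment beyond transfection. The siControl group received a negative control siRNA and the siNCOA4 group 1 siRNA against NCOA4, the cargo receptor that delivers ferritin to the lysosome. Both siRNAs were used at a final 50 nM with a liposomal reagent, and each group held 3 biological replicates profiled by poly(A) RNA-seq. The time from transfection to RNA isolation is not given for these libraries in the sources used here, although in the study's other knockdown experiments cells were collected or treated further about a day after transfection, and a single line with a single siRNA limits what the groups stand for.

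A T cell that recognises antigen needs a further signal from the presenting cell. The B7 proteins CD80 and CD86 provide it through CD28 and, through CTLA4, also restrain it, while PD-L1 (Cd274) acts on PD-1 and ICOS ligand (Icosl) on ICOS. Molecules of the TNF and TNF receptor superfamilies add to this exchange, with 4-1BB ligand (Tnfsf9) binding 4-1BB, CD40 receiving CD40 ligand, and HVEM (Tnfrsf14) binding BTLA. Galectin-9 (Lgals9) is a sugar-binding protein known as a partner of TIM-3, and CD48 is a SLAM family ligand of CD244 and CD2. By this division Cd40 and Tnfrsf14 encode receptors, although HVEM is also read by T cells as a ligand.

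Expression is in TPM, which corrects reads for the length of the gene and sums to 1000000 in each library. Levels of different genes can be compared as far as the exon lengths used match the transcripts present. Whole reads rebuilt from TPM came to between 15740333 and 18565409 on genes per library. Ncoa4 itself was at 19.7, 22.5 and 22.4 TPM in siControl replicates 1 to 3 and at 9.63, 8.6 and 8.88 TPM in siNCOA4 replicates 1 to 3, with a log2 fold change of -1.21 (SE 0.0767, adjusted p = 0.00127), in the direction of its labels. The macrophage marker Lyz2 was at 4880 ± 193 TPM in siControl and 5410 ± 51.7 TPM in siNCOA4 (SD, n = 3 each). Of 9 T cell markers, Cd3e, Cd3g, Cd8a and Trac had 0 reads in all 6 libraries, Cd3d and Cd4 had at most 3 reads in every library, and Lck, Cd2 and Cd5 were detected. Of the B cell markers, Ms4a1 and Pax5 were at 0 reads in all libraries, Cd79a and Cd79b had at most 3 reads in every library, Cd22 had 3 to 17 reads, and Ighm was detected with 292 to 413 reads. All 5 fibroblast markers had at most 3 reads in every library.

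Of the 9 genes, 8 had a mean of at least 0.5 TPM and entered the test of 13829 genes, and Cd48 did not. The test was limma on log2(TPM + 0.5) with p-values adjusted over all genes tested, and calling required an adjusted p under 0.05 together with a fold change above 1.5. Cd86, Tnfrsf14, Lgals9 and Cd80 were higher in siNCOA4 at an adjusted p under 0.05 (4 of 8, where 3.11% of all genes tested were). Tnfsf9 was lower (1 of 8, against 2.31% of all genes tested). With the fold threshold added, Cd86 and Tnfrsf14 were called (2 of 8, against 0.861% higher among all genes tested), and none of the 8 was called lower (0.318% of all genes tested), either with limma or with limma-voom on rebuilt reads. The median log2 fold change of the 8 was 0.32, against 0.031 over all 13829 genes, of which 57.4% had a positive sign. The 9 genes were chosen with earlier results of these data known, so these shares do not test the group as a whole. Cd40, Cd274 and Icosl did not pass the test. The 5 genes that passed became 2, 3 and 2 without siNCOA4 replicates 1, 2 and 3, and 4 without siControl replicate 3, while the 2 called genes became 1 without siNCOA4 replicate 1 or 3, Tnfrsf14 being the one lost.

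**Figure D1:**
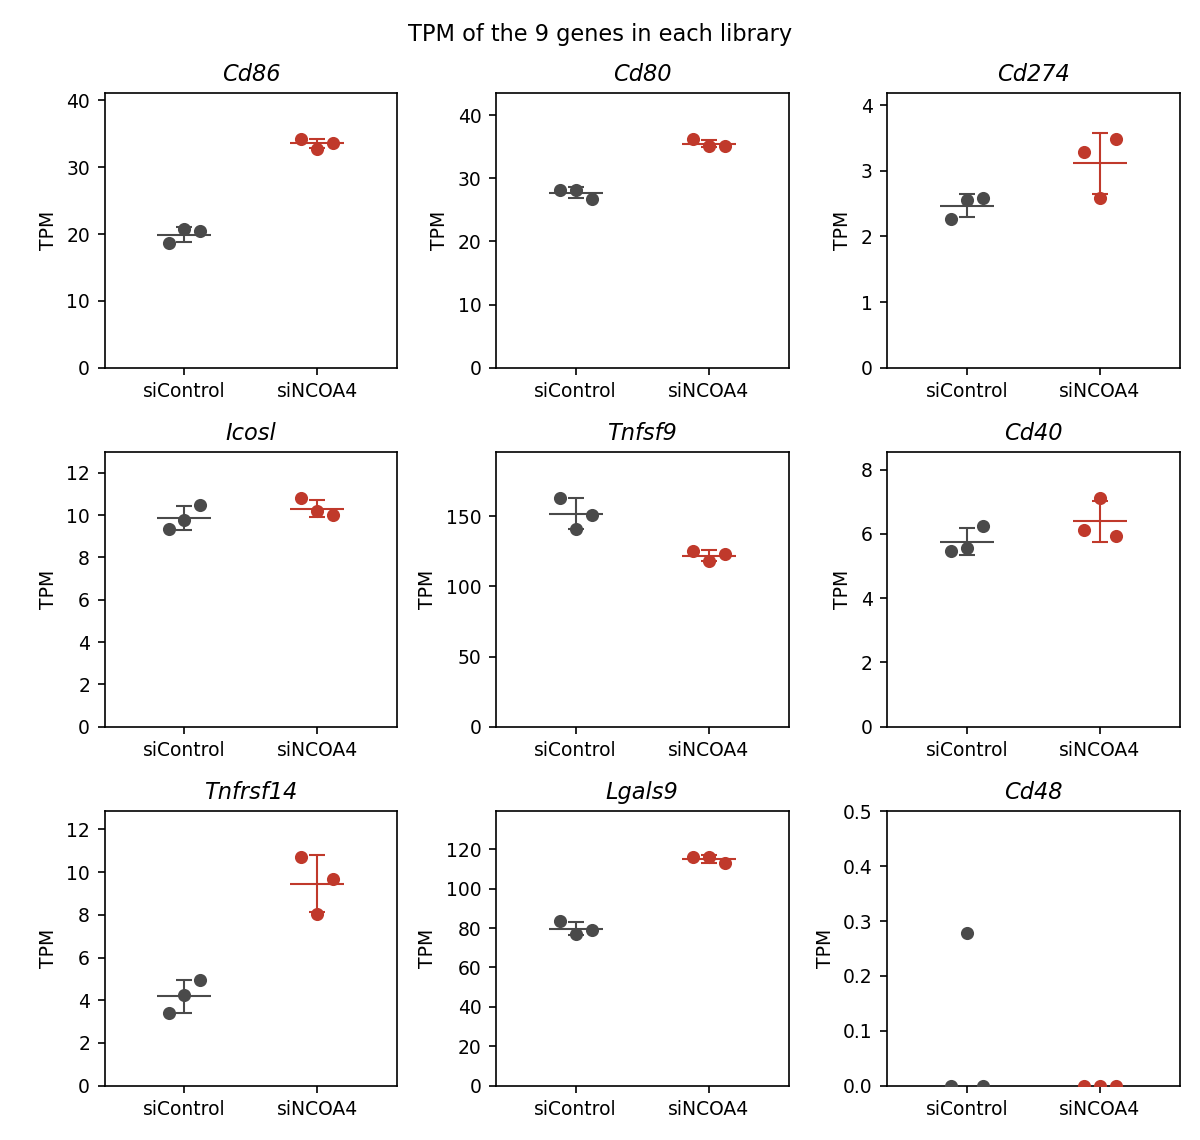
TPM of the 9 genes in each of the 6 libraries, 1 panel per gene with its own vertical axis from 0; points are libraries, and horizontal bars with whiskers are the mean and SD of 3 libraries (none drawn for Cd48). The siNCOA4 points of Cd86, Cd80, Lgals9 and Tnfrsf14 lie above all siControl points, those of Tnfsf9 below, and Cd48 is at 0 in 5 of 6 libraries.

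The promoters of 6 of the 9 genes were found in RefSeq's table (GRCm38.p6), as the 300 bases from 250 before to 50 after each start site: Cd80, Cd274, Icosl, Tnfrsf14, Lgals9 and Cd48. Those of Cd86, Cd40 and Tnfsf9 were not used here. Shown are the 3 that belong to genes higher in siNCOA4, Tnfrsf14 (chr4:154928028-154928327, minus strand), Lgals9 (chr11:78984875-78985174, minus strand) and Cd80 (chr16:38458683-38458982, plus strand), and that of Cd274 (chr19:29367188-29367487, plus strand), which did not pass the test. Each is written 5′ to 3′ along the gene, with matches to the motifs searched in capitals. The start sites used for Cd80, Tnfrsf14 and Lgals9 lie within the genes as GENCODE M21 draws them, and so do the whole windows of Cd80 and Tnfrsf14, which are therefore not sequence upstream of those gene models.
Tnfrsf14: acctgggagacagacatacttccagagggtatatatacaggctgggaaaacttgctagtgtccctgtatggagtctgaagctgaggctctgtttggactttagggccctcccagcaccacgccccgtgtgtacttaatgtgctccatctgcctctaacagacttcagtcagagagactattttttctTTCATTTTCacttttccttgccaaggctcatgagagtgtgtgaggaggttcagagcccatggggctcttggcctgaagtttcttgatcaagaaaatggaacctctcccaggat
Lgals9: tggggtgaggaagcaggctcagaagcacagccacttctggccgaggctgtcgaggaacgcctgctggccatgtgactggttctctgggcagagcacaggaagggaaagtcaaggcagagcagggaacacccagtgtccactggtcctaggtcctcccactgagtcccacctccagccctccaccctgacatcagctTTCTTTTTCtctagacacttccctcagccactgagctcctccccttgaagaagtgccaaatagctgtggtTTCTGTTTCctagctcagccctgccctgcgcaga
Cd80: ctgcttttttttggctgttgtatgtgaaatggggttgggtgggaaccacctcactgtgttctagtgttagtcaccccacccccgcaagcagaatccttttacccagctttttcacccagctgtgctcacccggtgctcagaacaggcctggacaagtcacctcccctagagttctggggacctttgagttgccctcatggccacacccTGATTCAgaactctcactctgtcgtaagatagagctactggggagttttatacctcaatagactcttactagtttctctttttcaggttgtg
Cd274: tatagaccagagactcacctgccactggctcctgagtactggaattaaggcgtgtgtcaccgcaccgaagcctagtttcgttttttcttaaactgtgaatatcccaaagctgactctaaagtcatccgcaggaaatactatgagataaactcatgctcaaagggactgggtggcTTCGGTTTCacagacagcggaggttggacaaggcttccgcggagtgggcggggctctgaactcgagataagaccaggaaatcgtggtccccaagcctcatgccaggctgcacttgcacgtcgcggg

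The motifs were searched on both strands as GAAANNGAA (the core of the interferon-stimulated response element, with reverse complement TTCNNTTTC), GGANTTTCC (NF-kB), TGANTCA (AP-1) and GAGGAAGT (PU.1, the myeloid factor encoded by Spi1). The interferon-stimulated core occurred once in Tnfrsf14, at 2 places in Lgals9 and once in Cd274, and it occurs in 8.56% of all 32851 promoters of this length. AP-1 occurred once in Cd80 (7.81% of all promoters), and NF-kB and PU.1 had no match in any of the 6 promoters, where 1.25% and 3.20% of all promoters hold them. The match in Tnfrsf14, the capitals TTCATTTTC, and those in Lgals9, TTCTTTTTC and TTCTGTTTC, are letters in these windows and not measured binding.

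Among the B7 genes, both ligands of CD28 were higher in siNCOA4 and the ligands of PD-1 and ICOS did not pass the test. Cd86 (ENSMUSG00000022901), on the minus strand of chromosome 16 from 36603869 to 36666081 (GRCm38), was at 18.6, 20.7 and 20.4 TPM in siControl replicates 1 to 3 and at 34.2, 32.8 and 33.7 TPM in siNCOA4 replicates 1 to 3. All siNCOA4 libraries thus lay above all siControl libraries. The mean rose from 19.9 ± 1.11 to 33.6 ± 0.687 TPM (SD, n = 3 each), 1.69 times the control mean. Its log2 fold change was 0.74 with a 95% confidence interval of 0.61 to 0.87 (SE 0.0559, adjusted p = 0.00216), and 3.73% of the genes tested had a larger absolute change. These values rest on 390 to 459 reads per library in siControl and on 655 to 745 in siNCOA4.

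Cd80 (ENSMUSG00000075122) lies on the plus strand of the same chromosome from 38455561 to 38496335, at a distance of 1.79 Mb from Cd86. It was at 28.2, 28.1 and 26.7 TPM in siControl and at 36.2, 35.2 and 35.1 TPM in siNCOA4, replicates 1 to 3 in each case. The groups did not overlap. The coefficient of variation was 3.06% in siControl and 1.65% in siNCOA4. Both were below the counting error alone, 4.15% and 3.63%, so the spread of 3 libraries was narrower here than read sampling gives on average. The log2 fold change of 0.35 (95% confidence interval 0.25 to 0.46, SE 0.0452, adjusted p = 0.00965) stayed under the fold threshold. Between Cd86 and Cd80 lie 15 tested genes with a median log2 fold change of 0.08, of which 1, Hcls1, was higher at an adjusted p under 0.05.

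The ratio of Cd86 to Cd80 TPM was 0.662, 0.736 and 0.766 in siControl replicates 1 to 3 and 0.945, 0.933 and 0.960 in siNCOA4 replicates 1 to 3, so that Cd86 came close to the level of Cd80 without passing it in any library. This ratio does not depend on how libraries are scaled to each other. It went from 0.721 ± 0.0535 to 0.946 ± 0.0134 (SD, n = 3 each; p = 0.1 by an exact permutation over the libraries, two-sided, with 3 against 3 unable to give a smaller one). The sum of both genes was 47.6 ± 1.07 TPM in siControl and 69.1 ± 1.18 TPM in siNCOA4 (exact permutation test, p = 0.1).

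**Figure D2:**
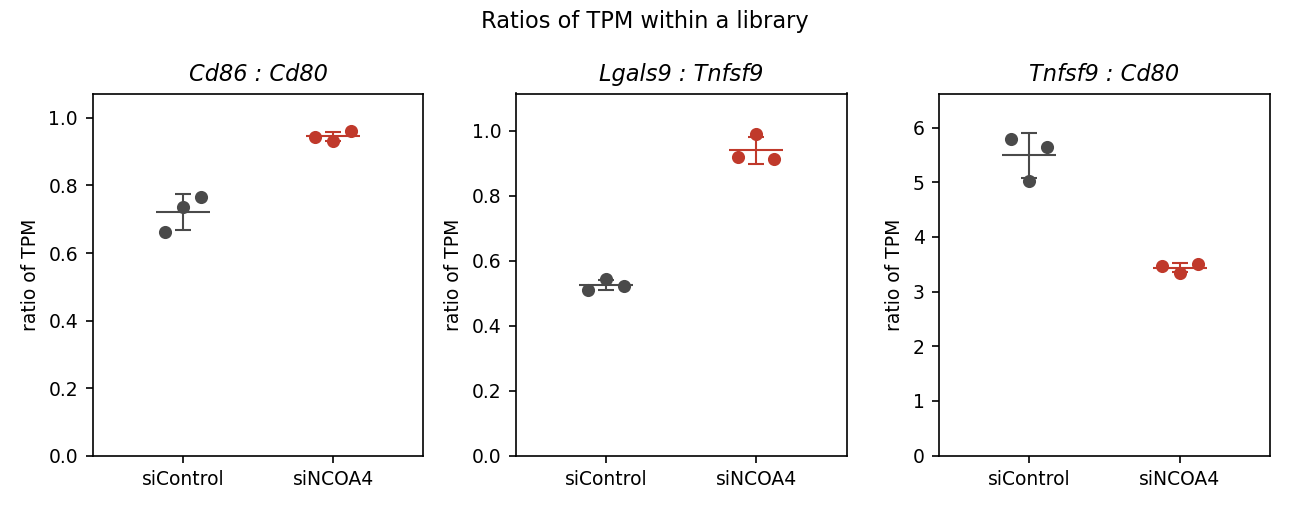
Ratios of TPM between pairs of the genes within each library, with vertical axes from 0; points are libraries, and bars with whiskers are the mean and SD of 3 libraries. Cd86 to Cd80 moves from 0.721 to 0.946, Lgals9 to Tnfsf9 from 0.526 to 0.941 and Tnfsf9 to Cd80 from 5.49 to 3.44.

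Cd274 (ENSMUSG00000016496, chromosome 19, 29367455 to 29388095) was the lowest of the detected genes, at 2.26, 2.55 and 2.59 TPM in siControl and 3.28, 2.58 and 3.48 TPM in siNCOA4. Replicate 2 of siNCOA4 fell among the siControl values, while replicates 1 and 3 lay above them. On 47 to 76 reads per library the log2 fold change was 0.28 with a 95% confidence interval from -0.06 to 0.62 (adjusted p = 0.320), which holds both no change and a rise past 1.5-fold. The counting error alone came to a coefficient of variation of 14.0% in siControl and 12.4% in siNCOA4, beside 7.38% and 15.1% between the libraries. Whether deeper libraries would show a change was not tested.

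Icosl (ENSMUSG00000000732, chromosome 10, 78069302 to 78083913) was at 9.35, 9.79 and 10.5 TPM in siControl and 10.8, 10.2 and 10.0 TPM in siNCOA4, and the groups overlapped. Its log2 fold change was 0.06 with a 95% confidence interval from -0.10 to 0.23 (adjusted p = 0.648). With 248 to 289 reads per library, this interval lay within the fold threshold on both sides.

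Of the TNF and TNF receptor superfamily genes, the ligand gene Tnfsf9 was lower, the receptor gene Tnfrsf14 was higher and Cd40 did not pass the test. Tnfrsf14 (ENSMUSG00000042333), on the minus strand of chromosome 4 from 154921933 to 154928563, was at 3.39, 4.25 and 4.94 TPM in siControl and 10.7, 8.04 and 9.68 TPM in siNCOA4. The lowest siNCOA4 library was above the highest siControl library. The mean of 4.19 ± 0.774 TPM in siControl compared with 9.46 ± 1.32 TPM in siNCOA4 (SD, n = 3 each), 2.26 times the control mean. Its log2 fold change of 1.09 was the largest among the 8 genes tested (95% confidence interval 0.73 to 1.46, SE 0.154, adjusted p = 0.0136). It rests on 28, 37 and 37 reads in siControl and 89, 63 and 84 reads in siNCOA4, the fewest of the genes that passed the test. The adjusted p was 0.0741 without siNCOA4 replicate 1 and 0.0703 without siNCOA4 replicate 3.

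Tnfsf9 (ENSMUSG00000035678; chromosome 17, plus strand, 57105325 to 57107757) was the most abundant of the 9 genes, at a mean TPM above that of 91.7% of the genes tested. It was at 163, 141 and 151 TPM in siControl and 125, 118 and 123 TPM in siNCOA4. The siNCOA4 libraries lay below all siControl libraries. The mean went from 152 ± 10.8 to 122 ± 4.11 TPM (SD, n = 3 each), a decrease in log2 fold change of -0.31 (95% confidence interval -0.45 to -0.17, SE 0.0592, adjusted p = 0.0324). The adjusted p was 0.0845 without siControl replicate 3 and 0.112, 0.143 and 0.118 without siNCOA4 replicates 1, 2 and 3. The opposite strand carries Gm11110, a long noncoding RNA gene that shares 192 of the 1290 exonic bases of Tnfsf9. Gm11110 was at 18.9 ± 1.66 TPM in siControl and 15.8 ± 1.65 TPM in siNCOA4 (SD, n = 3 each; log2 fold change -0.25, adjusted p = 0.197). The libraries were stranded, but the strand setting of the counting is not given in the sources used here, so reads of the shared bases may have been left out or given to either gene.

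The receptor of the 4-1BB ligand, Tnfrsf9, which is among the genes listed for comparison, moved the other way. It was at 20.9, 22.1 and 18.9 TPM in siControl and 34.6, 29.9 and 28 TPM in siNCOA4, with a log2 fold change of 0.57 (SE 0.0935, adjusted p = 0.0218). Its siNCOA4 libraries were all above the siControl libraries. Without siNCOA4 replicate 2, 0 of the genes listed for comparison passed an adjusted p of 0.05, Tnfrsf9 included.

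Cd40 (ENSMUSG00000017652, chromosome 2, 165055627 to 165072948) was at 5.47, 5.57 and 6.25 TPM in siControl and 6.12, 7.11 and 5.94 TPM in siNCOA4, and 1 of 3 siNCOA4 libraries lay above every siControl library. Its log2 fold change was 0.14 with a 95% confidence interval from -0.10 to 0.37 (adjusted p = 0.492) on 107 to 132 reads per library.

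Lgals9 (ENSMUSG00000001123), the galectin gene of the group, lies on the minus strand of chromosome 11 from 78962974 to 78984946. Its TPM was 83.4, 76.8 and 78.9 in siControl and 116, 116 and 113 in siNCOA4. The groups did not overlap, with 79.7 ± 3.34 TPM against 115 ± 1.91 TPM (SD, n = 3 each) on 879 to 1453 reads per library. The coefficient of variation was 4.19% in siControl and 1.66% in siNCOA4, beside a counting error alone of 3.22% and 2.66%. The log2 fold change was 0.52 (95% confidence interval 0.42 to 0.63, SE 0.0433, adjusted p = 0.00234), short of the fold threshold at 1.44 times the control. Since Tnfsf9 went down and Lgals9 up, their levels came together. The ratio of Lgals9 to Tnfsf9 was 0.526 ± 0.0161 in siControl and 0.941 ± 0.0419 in siNCOA4 (SD, n = 3 each; exact permutation test, p = 0.1). Of the summed TPM of the 9 genes, which was 301 ± 12.1 and 335 ± 6.31 TPM, Tnfsf9 made up 50.3% in siControl and 36.4% in siNCOA4, and Lgals9 26.4% and 34.3%.

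Cd48 (ENSMUSG00000015355, chromosome 1, 171682009 to 171705258) had 2 reads in siControl replicate 2 and 0 reads in the other 5 libraries. The 2 reads amount to 0.278 TPM. A count of 0 allows up to 3 reads, which on this gene is 0.418 to 0.484 TPM in the 5 libraries at 0, and this limit covers counting error only. Both groups were under the test's minimum mean, and no fold change is given.

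**Figure D3:**
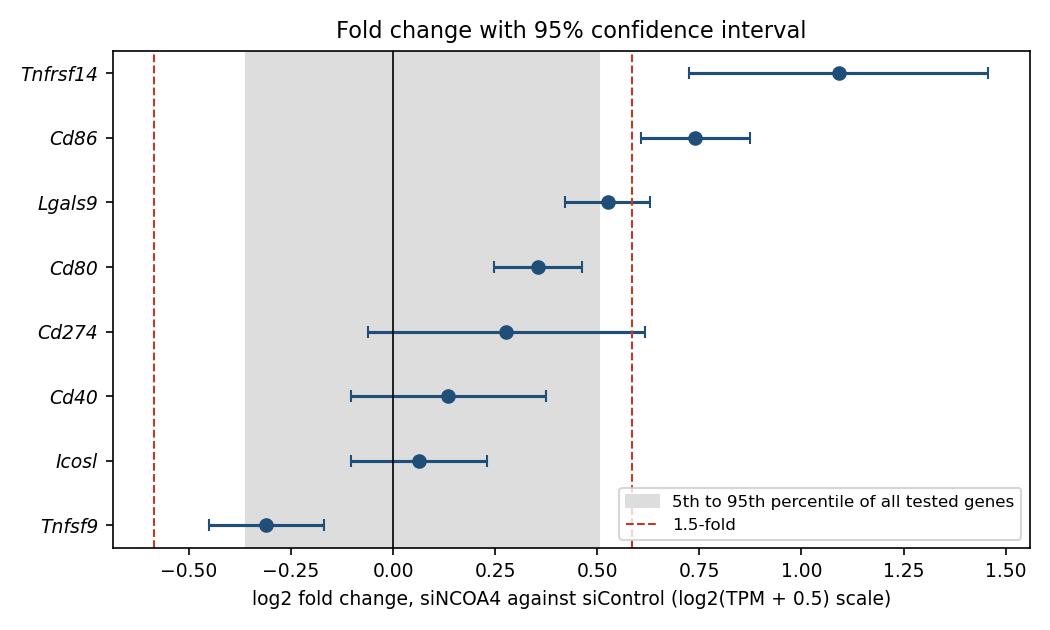
Log2 fold changes of the 8 tested genes (points) with 95% confidence intervals (whiskers) on the log2(TPM + 0.5) scale; the grey band spans the 5th to 95th percentile of all 13829 genes, -0.361 to 0.503, and dashed lines mark 1.5-fold in either direction. Tnfrsf14, Cd86 and Lgals9 lie beyond the band, and the intervals of Cd274, Cd40 and Icosl include 0.

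In siControl the mean levels ran from Tnfsf9 (152 TPM) over Lgals9 (79.7 TPM), Cd80 (27.7 TPM), Cd86 (19.9 TPM), Icosl (9.87 TPM), Cd40 (5.76 TPM) and Tnfrsf14 (4.19 TPM) to Cd274 (2.47 TPM), and no neighbours in this order overlapped in their ranges. In siNCOA4 Tnfrsf14, at 9.46 TPM, stood above Cd40, at 6.39 TPM, and its range overlapped that of Icosl, at 10.3 TPM. The rest of the order was as in siControl. This order depends on the exon lengths used. Without any overlap between siControl and siNCOA4 libraries, 4 genes were higher (16.6% of all genes tested were) and 1 was lower (11.8% were), which are the genes that passed the test. Each of these 5 gave p = 0.1 in the exact two-sided permutation test of TPM, the smallest p possible, and Cd274, Cd40 and Icosl gave 0.2, 0.3 and 0.4.

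**Figure D4:**
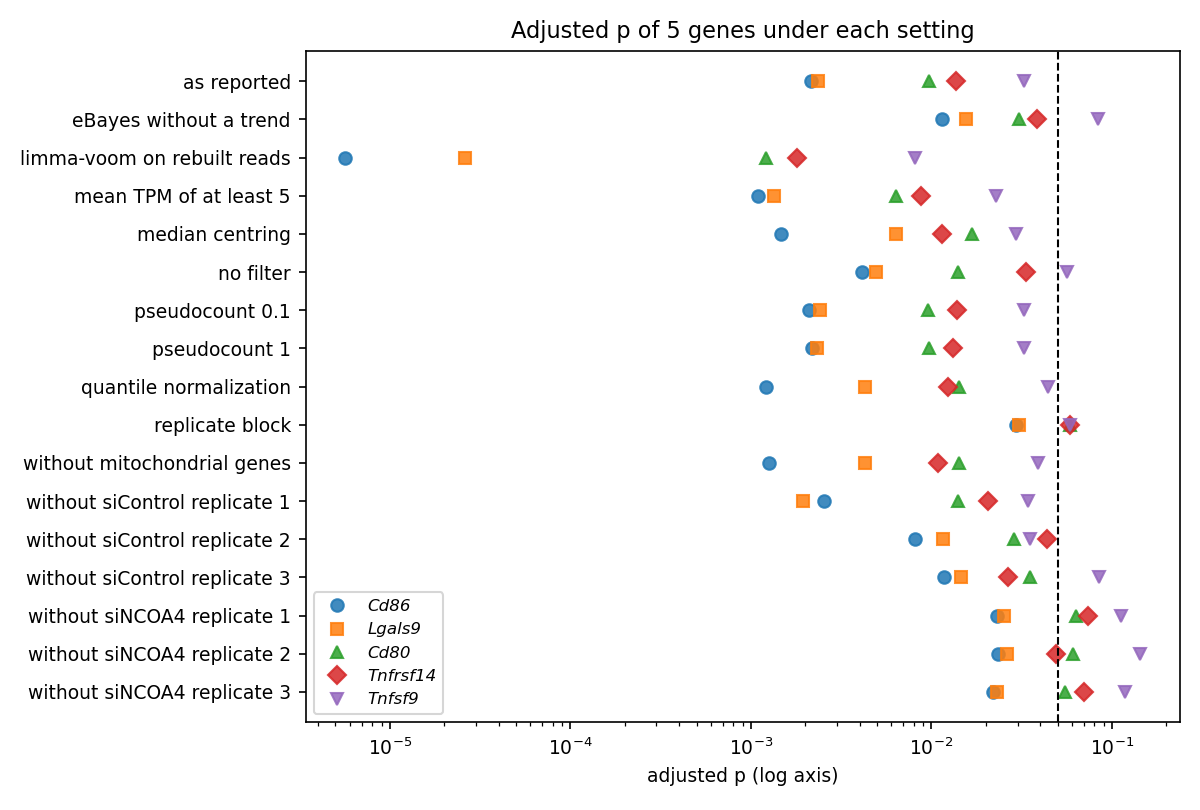
Adjusted p (log axis) of the 5 genes that passed the test, under the reported setting and 16 alternatives; the dashed line is 0.05. Cd86 and Lgals9 lie left of the line in all of them, whereas Cd80, Tnfrsf14 and Tnfsf9 cross it in 4, 3 and 7.

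Cd86 and Lgals9 passed an adjusted p of 0.05 under all 16 alternatives, with log2 fold changes of 0.68 to 0.77 and 0.47 to 0.56. Cd80 had an adjusted p of 0.0632, 0.0611 and 0.0552 without siNCOA4 replicates 1, 2 and 3, at log2 fold changes of 0.34 to 0.36.

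The tested genes around the 9 were also examined. Within 250 kb on either side of Cd86, Cd80, Tnfrsf14 and Lgals9 lay 4, 9, 6 and 4 other tested genes, and 0 of these 23 had an adjusted p under 0.05 with limma or limma-voom (2 at an unadjusted p under 0.05). Around Tnfsf9, 2 of 15 did, Dennd1c and C3, both higher with log2 fold changes of 0.41 and 0.67, which is opposite to Tnfsf9. Around Cd40, 1 of 14 passed, Slc12a5 (log2 fold change 0.38), and around Icosl 1 of 8, Agpat3 (log2 fold change 0.24), although Cd40 and Icosl themselves did not pass. Around Cd274 and Cd48 lay 7 and 5 tested genes, of which 0 passed with limma, 2 at an unadjusted p under 0.05 and 2, Cd84 and Plgrkt, with limma-voom.

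The genes whose 6 values moved most like those of the called genes were sought among 10028 tested genes with a mean of at least 5 TPM, by the root mean square difference of their log2(TPM + 0.5) deviations over the 6 libraries. For Cd86 they were 2610528A11Rik, Clec4n and Sema4a, with differences of 0.033, 0.038 and 0.050. Clec4n was at 51.9 ± 4.11 TPM in siControl and 86.8 ± 2.11 TPM in siNCOA4 (SD, n = 3 each). For Tnfrsf14 they were Aldh1l1, Zfp658 and Eno3, with larger differences of 0.121, 0.135 and 0.136.

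Other genes of the same pathway were listed in 7 groups, of which 63 of 98 genes were tested. Of these 63, 4 were higher and 2 lower at an adjusted p under 0.05, 0 passed the fold threshold with limma and 1 with limma-voom on rebuilt reads, and the median log2 fold change was 0.10. Over all genes tested, 3.11% were higher and 2.31% lower at an adjusted p under 0.05. At an unadjusted p under 0.05, 17 of the 63 were higher and 6 lower. Such p-values were common, since an unadjusted limma p of 0.0485, that of Cd28, ranked 2929 among all 13829 genes tested. The 6 genes that passed became 1, 0 and 1 without siNCOA4 replicates 1, 2 and 3, and 3 and 2 without siControl replicates 2 and 3. Among other B7 and butyrophilin genes, 2 of 9 were tested, and 4, including the gene of the second PD-1 ligand, Pdcd1lg2, had 0 reads in all libraries. Vsir, which encodes the checkpoint ligand VISTA, was higher at 109 ± 1.90 and 124 ± 2.91 TPM (SD, n = 3 each; log2 fold change 0.18, adjusted p = 0.0407). Cd276 was at 0.517 ± 0.153 and 0.924 ± 0.263 TPM (adjusted p = 0.348).

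Among 15 other TNF superfamily ligands, 8 were tested and 0 passed with limma or limma-voom (1 at an unadjusted p under 0.05), the median log2 fold change being -0.14. The smallest adjusted p-values belonged to Tnf (94.9 ± 6.90 and 84.5 ± 2.20 TPM, adjusted p = 0.168), Tnfsf14, the ligand of HVEM (21.9 ± 0.137 and 19.8 ± 1.49 TPM, adjusted p = 0.270), and Ltb (11.4 ± 0.248 and 9.47 ± 2.19 TPM, adjusted p = 0.337). Tnfsf8, Tnfsf11, Cd70 and Fasl had 0 reads in every library.

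In the CD2 and SLAM family 4 of 9 genes in the files were tested and 0 passed with limma, although 1, Cd84, did with limma-voom and 2 did at an unadjusted p under 0.05. Cd84 was at 35.4 ± 1.49 and 42.0 ± 1.99 TPM (adjusted p = 0.0547), Slamf9 at 0.718 ± 0.0844 and 1.53 ± 0.435 TPM (adjusted p = 0.130), and Cd2 at 0.778 ± 0.377 and 1.27 ± 0.181 TPM (adjusted p = 0.33). Among nectins, galectins and other partners of T cells 10 of 14 were tested. With limma 2 were lower and 0 higher, and with limma-voom 3 were lower and 1 higher. Lgals3, another galectin, went from 998 ± 39.6 to 847 ± 13.3 TPM (log2 fold change -0.24, adjusted p = 0.0286), opposite to Lgals9. Raet1e, a ligand gene of the NK cell receptor NKG2D, went from 200 ± 8.63 to 167 ± 6.26 TPM (log2 fold change -0.26, adjusted p = 0.0299). Lgals1 was at 4840 ± 640 and 3860 ± 141 TPM (adjusted p = 0.115).

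A further list held 16 genes for T cell partners of costimulatory and checkpoint molecules, not all of them partners of the 9. Of these, 7 were tested and 6 had 0 reads in all libraries, including Btla, Cd40lg and Tigit. Tnfrsf9 was the 1 that passed. Icos was at 1.97 ± 0.417 and 3.28 ± 0.779 TPM (adjusted p = 0.142), and Havcr2, the gene of TIM-3, at 29.1 ± 1.21 and 33.0 ± 0.316 TPM (adjusted p = 0.0875). Cd28, named here after its values were seen, was detected at 31.1 ± 1.45 and 28.5 ± 0.658 TPM (SD, n = 3 each, adjusted p = 0.229). Among the T cell markers, Cd3e, Cd3g, Cd8a and Trac had 0 reads, and Cd3d and Cd4 had at most 3 in every library. The markers Lck, Cd2 and Cd5 were detected.

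All 19 genes of CD40 signalling and NF-kB were tested. With limma 1 passed, and with limma-voom 4 did, Birc3, Ikbkb, Nfkbie and Rel, 1 of them called. At an unadjusted p under 0.05, 6 were higher and 0 lower. Nfkbie, an inhibitor of NF-kB, rose from 7.24 ± 0.681 to 10.9 ± 1.22 TPM (SD, n = 3 each; log2 fold change 0.56, adjusted p = 0.0326). Ikbkb was at 12.3 ± 0.248 and 14.5 ± 0.266 TPM (adjusted p = 0.0613) and Birc3 at 17.0 ± 1.13 and 20.4 ± 0.633 TPM (adjusted p = 0.0736). Of the regulators of B7 ligands 13 of 16 genes in the files were tested, of which 2, Cmtm6 and Irf1, passed with limma-voom. With limma the 1 that passed was Irf1, a transcription factor of the interferon response. It was at 15.1, 15.6 and 14.6 TPM in siControl and 20.8, 22.2 and 23.7 TPM in siNCOA4 (log2 fold change 0.54, adjusted p = 0.00776). Cmtm6, which encodes a stabiliser of PD-L1 at the cell surface, was at 47.2 ± 5.07 and 58.4 ± 0.673 TPM (adjusted p = 0.0733), and Irf8 at 72.4 ± 3.33 and 65.6 ± 0.457 TPM (adjusted p = 0.141).

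**Figure D5:**
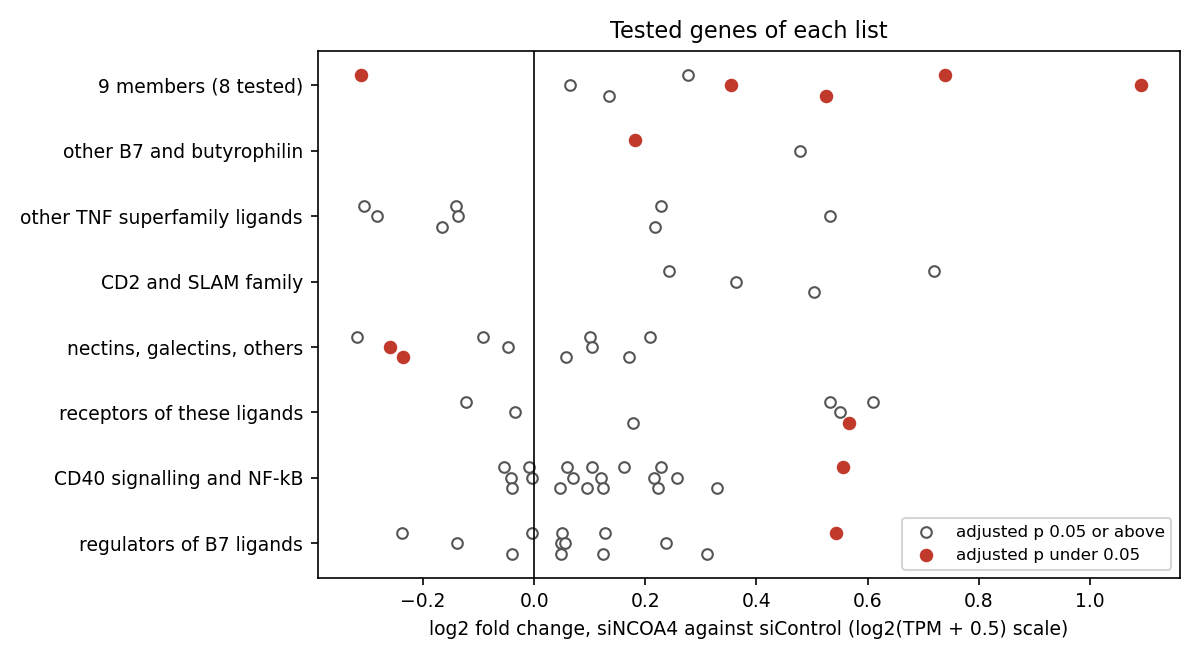
Log2 fold changes of the tested genes in each list on the log2(TPM + 0.5) scale, 1 point per gene, spread vertically only for legibility; filled points have an adjusted p under 0.05. Filled points number 5 of 8 in the top row and 6 of 63 in the other 7 rows. The genes of all rows were chosen with earlier results of these data known, so the rows are not a test against each other.

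Macrophage markers moved with the groups as well. Of 10 listed, 5 were higher and 1 lower at an adjusted p under 0.05, where 3.11% and 2.31% of all genes tested were. Of the 5, Mrc1, Adgre1 and Fcgr1 were also past the fold threshold (3 of 10, against 0.861% of all genes tested). The 6 had log2 fold changes of 0.86 for Mrc1, 0.61 for Adgre1, 0.59 for Fcgr1, 0.48 for Mertk, 0.31 for Csf1r and -0.27 for Cd14. Of the markers that did not pass, Cd68 was lower (1830 ± 198 and 1570 ± 55.7 TPM, adjusted p = 0.178). Itgam, Lyz2 and Spi1, which did not pass either, were higher by sign. The summed level of all 10 listed was 8710 to 8900 TPM in siControl and 9110 to 9210 TPM in siNCOA4. Its largest part was Lyz2 (4880 ± 193 and 5410 ± 51.7 TPM, adjusted p = 0.161), so the sum does not describe the markers that passed. The B cell list, in which Ms4a1 and Pax5 were at 0 and Cd79a and Cd79b at no more than 3 reads, had a summed level of 27.8 to 30.3 TPM in siControl and 36.9 to 38.0 TPM in siNCOA4, nearly all of it Ighm (28.5 ± 1.14 and 36.8 ± 0.453 TPM, adjusted p = 0.00996). The T cell list was at 11.1 to 12.3 and 11.0 to 11.8 TPM, mostly Lck and Cd5. The dendritic cell list was at 13.5 to 16.9 and 15.4 to 15.8 TPM, mostly Batf3 and Zbtb46. The part of these markers in the changes of the 9 genes was not tested. More RNA per cell and more cells that express a gene cannot be told apart in bulk libraries.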

How the data were processed

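Total RNA of J774 cells was sequenced by the authors from stranded poly(A) libraries, and the submitters' processing notes name Trimmomatic (version 0.33), FastQC, HISAT2 (version 2.1.0), featureCounts, edgeR and the mm10 build. The authors deposited TPM per Ensembl gene, 1 file per library, without scaling between libraries. Of 55487 identifiers, 55227 were found in GENCODE M21 (GRCm38), which gave symbols, positions and exon lengths. Groups and replicate numbers came from the sample titles, and nothing says whether replicates came from separate thaws, so p-values measure the spread between these libraries.

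Whole reads were rebuilt as TPM multiplied by exon length over the value of 1 read. All 6 values of a gene were whole within 0.001 (for values up to 10000 reads) for 20749 of the 21096 genes above 0 (98.4%), and the other 347 took the smallest length that made them whole. The rebuilt reads gave the depth, with 15740333 to 18565409 reads per library, and 1 alternative test.

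Genes with a mean of at least 0.5 TPM entered limma 3.58.1 under R 4.3.3 as log2(TPM + 0.5), with eBayes using a trend and Benjamini-Hochberg adjustment over 13829 genes, and every adjusted p given is from this test unless another is named. Since the deposited unit is TPM, a test on the log scale took the place of the study's test on counts, and rebuilt reads were tested only as an alternative. Fold changes on this scale understate changes of low genes. The test was also run on simulated reads whose spread was set in advance and not taken from these libraries, which does not bear on single genes here. Permutation tests used all 20 arrangements and were two-sided. The members, gene lists, motifs and tests were chosen with earlier results of these data known. Named genes are the 9 members, Ncoa4, the up to 3 genes of each list with the smallest adjusted p (all those past both thresholds in the marker lists, which were 3 macrophage genes), the 3 genes closest in pattern to each called member, and genes that stand beside these as markers, neighbours or overlapping genes. A marker gene and a motif are not reported here. The alternatives changed the pseudocount to 1 or 0.1, dropped the filter or set it to a mean of 5 TPM, or used median centring, quantile normalization, removal of mitochondrial genes, eBayes without a trend, limma-voom on rebuilt reads, a replicate block or 1 library fewer.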

Additional observations from a re-analysis of the deposited data

How the results depend on the processing

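Among the 8 tested genes no fold change turned its sign under the 16 alternatives, and Cd86 and Lgals9 kept their side of the threshold in all of them. Cd80, with a log2 fold change of 0.355, had an adjusted p of 0.0583 with a replicate block, and 0.0552 to 0.0632 without single siNCOA4 libraries, with log2 fold changes of 0.33 to 0.37 when 1 library was left out. Tnfrsf14 (1.091) had an adjusted p of 0.0586 with the block, and 0.963 to 1.204 was its range with 1 library left out. Tnfsf9 (-0.311) missed the threshold with eBayes without a trend (adjusted p = 0.0838), no filter (0.0567) and the block (0.0583), and ranged from -0.360 to -0.258 with 1 library left out. The sample titles do not say whether the replicate numbers pair the libraries. Same-numbered libraries correlated at -0.019 to 0.028 in their deviations from the group means. The block took the genes passing an adjusted p of 0.05 from 5 to 2 and those called from 2 to 1. With 1 library left out, 2 to 5 of the genes passed and 1 to 2 were called.

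Of the 63 other tested genes of the pathway, 6 passed an adjusted p of 0.05, against 1 with eBayes without a trend, 13 with limma-voom, 1 with a replicate block and 0 to 7 with 1 library left out.

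Over all 13829 genes, 750 passed an adjusted p of 0.05, against 404 with eBayes without a trend, 1499 with limma-voom, 499 with no filter, 161 with a replicate block and 127 to 807 with 1 library left out. The 119 genes called higher became 61 with the block and 54 to 120 with 1 library left out, and the 44 called lower became 29 at a mean of at least 5 TPM, 68 with median centring, 26 with the block and 23 to 52 with 1 library left out. The causes of these shifts were not tested. Median centring and quantile normalization moved the median log2 fold change of all genes from 0.031 to -0.027 and -0.006 and the share of called genes that were higher from 73.0% to 60.7% and 61.9%, with no effect on which of the 9 genes passed. Cd274 has no value at a mean of at least 5 TPM, and Cd48 was not tested. Among the 8 tested genes, Cd274 and Tnfrsf14 had the fewest reads.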
